A study of Mus musculus with 24 samples.

Results

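A set of genes that mark blood monocytes and macrophages newly derived from them was followed through sorted mouse lung macrophages: 9 genes of the 43430 gene IDs of a deposited table of RNA-seq read counts. They were the fractalkine receptor Cx3cr1, the chemokine receptor Ccr2, the surface antigen gene Ly6c2, the lipopolysaccharide co-receptor Cd14, the integrin subunit Itgam, the MS4A family genes Ms4a7 and Ms4a6c, the high-affinity IgG receptor Fcgr1 and the F4/80 gene Adgre1. The members were taken from a list of markers of monocytes and newly recruited macrophages, and each was found in the table by its symbol. The 24 libraries came from 6 groups of 4, all C57BL/6J mice with no transgene or gene deletion named in the labels. Naive mice of each age gave Siglec F-high cells, and asbestos-exposed mice of each age gave Siglec F-high and, as separate groups, Siglec F-low cells. Young animals were 8 to 12 weeks old by the labels and 2 months by the series text. Old animals were over 18 months by the labels and 18 months by the series text, and asbestos had been given 28 days before the cells were taken. The type of fibre, the dose, the sex of the animals and whether a library held 1 animal or a pool are not named in the sources used here. Siglec F-low cells were sequenced from asbestos lungs only. Nothing says that the libraries of a group came from separate animals, so p-values measure the spread between these libraries, which may be technical.

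Alveolar macrophages that live in the airspaces from early life carry much Siglec F and renew themselves locally. After lung injury, monocytes enter from the blood, turn into macrophages and gain Siglec F as they mature, so a Siglec F-low gate is used to collect the more recent arrivals. Classical monocytes are known for Ly6c2 and Ccr2, nonclassical monocytes for Cx3cr1. Itgam, Cd14, Fcgr1 and Adgre1 are shared, to different degrees, by monocytes and many macrophages, and Ms4a7 is a gene of macrophages that arose from monocytes and of interstitial macrophages.

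In 22 libraries there were 13423080 to 18124526 counts and 17069 to 18820 genes with at least 1 count. The other 2 libraries stood apart. Young asbestos Siglec F-high replicate 3 had 11889517 counts on only 12528 genes, and its log2 values correlated with the rest of its group at 0.868 across genes, against 0.977 to 0.996 in the 22. Old asbestos Siglec F-high replicate 3 had 3894699 counts, 42.7% of them on rRNA-related genes, against 0.218 to 0.526% in the 22, and its correlation was 0.919. Results are therefore given with all 24 libraries, and the main ones also with the 22. The sort had the direction of its label: Siglecf, the gated gene, was lower in Siglec F-low than in Siglec F-high cells by a log2 fold change of -0.67 ± 0.14 (SE) in young asbestos lungs and -1.35 ± 0.14 in old ones (edgeR adjusted p 0.00443 and 3.84e-06). All 16 listed genes of resident alveolar macrophages were detected in every library, and their summed level was 18960 to 70410 CPM (counts scaled to a library of 1000000) in the 22 libraries, against 866 to 1240 CPM for the 9 monocyte and early macrophage genes. A few genes made up much of each sum. Over the 24 libraries Chil3 had a median of 21950 CPM in the first list, and Cd14 and Adgre1 had 587.5 and 334.6 CPM in the second.

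The 9 genes lay far apart in level. On a scale of CPM per kilobase of exon, the median over the 22 libraries was 0.256 for Ly6c2, 0.722 for Cx3cr1, 1.60 for Ms4a7, 2.15 for Ccr2, 3.45 for Itgam, 4.89 for Ms4a6c, 17.8 for Fcgr1, 104 for Adgre1 and 345 for Cd14. The classical and nonclassical monocyte genes Ly6c2, Cx3cr1 and Ccr2 were thus near the bottom, and the receptors that mature macrophages also carry, Fcgr1, Adgre1 and Cd14, were at the top. The ratio of the highest to the lowest of the 22 libraries was 24.4 for Ly6c2, 15.2 for Itgam, 7.89 for Ms4a7 and 7.48 for Cx3cr1, and 1.79 for Adgre1, 1.93 for Cd14, 2.14 for Ms4a6c, 2.79 for Ccr2 and 3.14 for Fcgr1. The plot of levels per kilobase shows both features, the order of the genes and the spread within each.

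**Figure D1:**
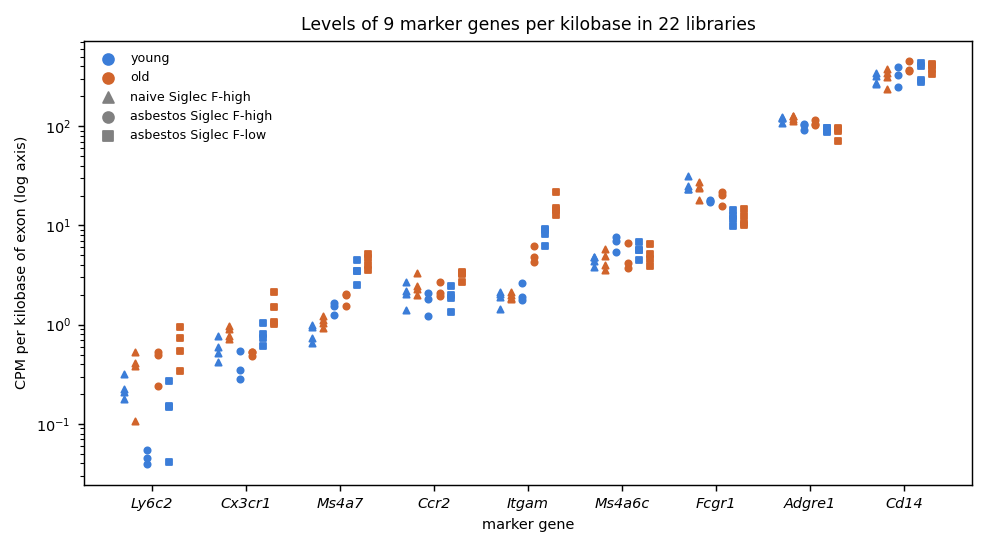
Level of each marker gene as CPM per kilobase of exon, on a log axis, in the 22 libraries that did not stand apart. Each point is 1 library, blue for young and orange for old, with triangles for naive Siglec F-high, circles for asbestos Siglec F-high and squares for asbestos Siglec F-low; medians run from 0.256 for Ly6c2 to 345 for Cd14.

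Differences between 2 groups were tested with edgeR over 13467 genes with 24 libraries and 13629 with 22, and calls were made below an adjusted p of 0.05. All 9 members passed the filter on low counts, in both fits. Itgam was called in 5 of the 7 comparisons of 2 groups, the same 5 in both fits. With 24 libraries Ms4a7 and Ly6c2 were called in 2 comparisons each and Cx3cr1 in 1. With 22 libraries Ms4a7 was called in 4, Cx3cr1, Ly6c2 and Fcgr1 in 3 each, and Ccr2 and Adgre1 in 1 each. Cd14 and Ms4a6c were called in none. In bulk libraries of sorted cells, a change in the share of cells that express a gene and a change in its RNA per cell cannot be told apart.

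Siglec F-low cells were compared with Siglec F-high cells of the same age and exposure. Genes of resident alveolar macrophages were called in both directions between the sorts. With 24 libraries, of 16 listed, 2 were higher (Chil3 and Fabp5) and 5 lower in young asbestos lungs. The same 2 were higher and 3 lower in old ones. The lower genes were Cidec, Ear1 and Siglecf at both ages, and Krt19 and Krt79 in young. Siglecf is the gated gene, so the sort itself selects for its direction. With 22 libraries 3 were higher and 4 lower in young, and 4 higher and 6 lower in old. The summed level of the 16 genes, mostly Chil3, was 39870 to 52550 CPM in young and 55780 to 70410 CPM in old Siglec F-low cells. Without the outlying libraries it was 27830 to 32380 and 40610 to 45840 CPM in the Siglec F-high cells of these lungs. In old asbestos lungs 3 of 9 members were higher with 24 libraries, Itgam, Ms4a7 and Cx3cr1, where 4.30% of all genes were called. With 22 libraries the same 3 were higher and Fcgr1 and Adgre1 were lower, where 11.6% of all genes were called. In young asbestos lungs Itgam alone was called with 24 libraries (4.99% of all genes), and Itgam, Ms4a7 and Cx3cr1 were higher and Fcgr1 lower with 22 (12.0% of all genes). The median log2 fold change of the 9 genes was 0.27 in young and 0.36 in old with 24 libraries, against 0.00 for all genes at either age. With 22 libraries it was 0.15 in young and 0.49 in old.

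Age was compared 3 times. No member was called between old and young naive Siglec F-high cells by edgeR with 24 libraries (2.03% of all genes called) or with 22 (8.03%). An unadjusted p under 0.05 was found for 0 members with 24 libraries, where 1164 of 13467 genes had one. With 22 it was found for 1 member, where 2816 of 13629 genes had one. DESeq2 and limma voom called 0 members, where they called 474 and 1870 genes over all. Between old and young asbestos Siglec F-high cells, Itgam and Ly6c2 were called higher in old in both fits, where 4.76 and 7.32% of all genes were called. Between old and young asbestos Siglec F-low cells, Itgam was higher in old with 24 libraries (1.29% of all genes), and Itgam, Ly6c2, Ccr2 and Cx3cr1 were higher with 22 (7.21%).

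Asbestos was compared with no exposure in Siglec F-high cells. In young mice Ms4a7 was higher and Ly6c2 lower after asbestos with 24 libraries, where 1.90% of all genes were called, and Fcgr1 was also lower with 22, where 5.06% were. In old mice Itgam was higher with 24 libraries (0.780% of all genes), and Itgam and Ms4a7 were higher with 22 (4.12%). The asbestos Siglec F-high groups serve in the comparisons of age, of exposure and of sort, so these comparisons are not independent of each other.

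**Figure D2:**
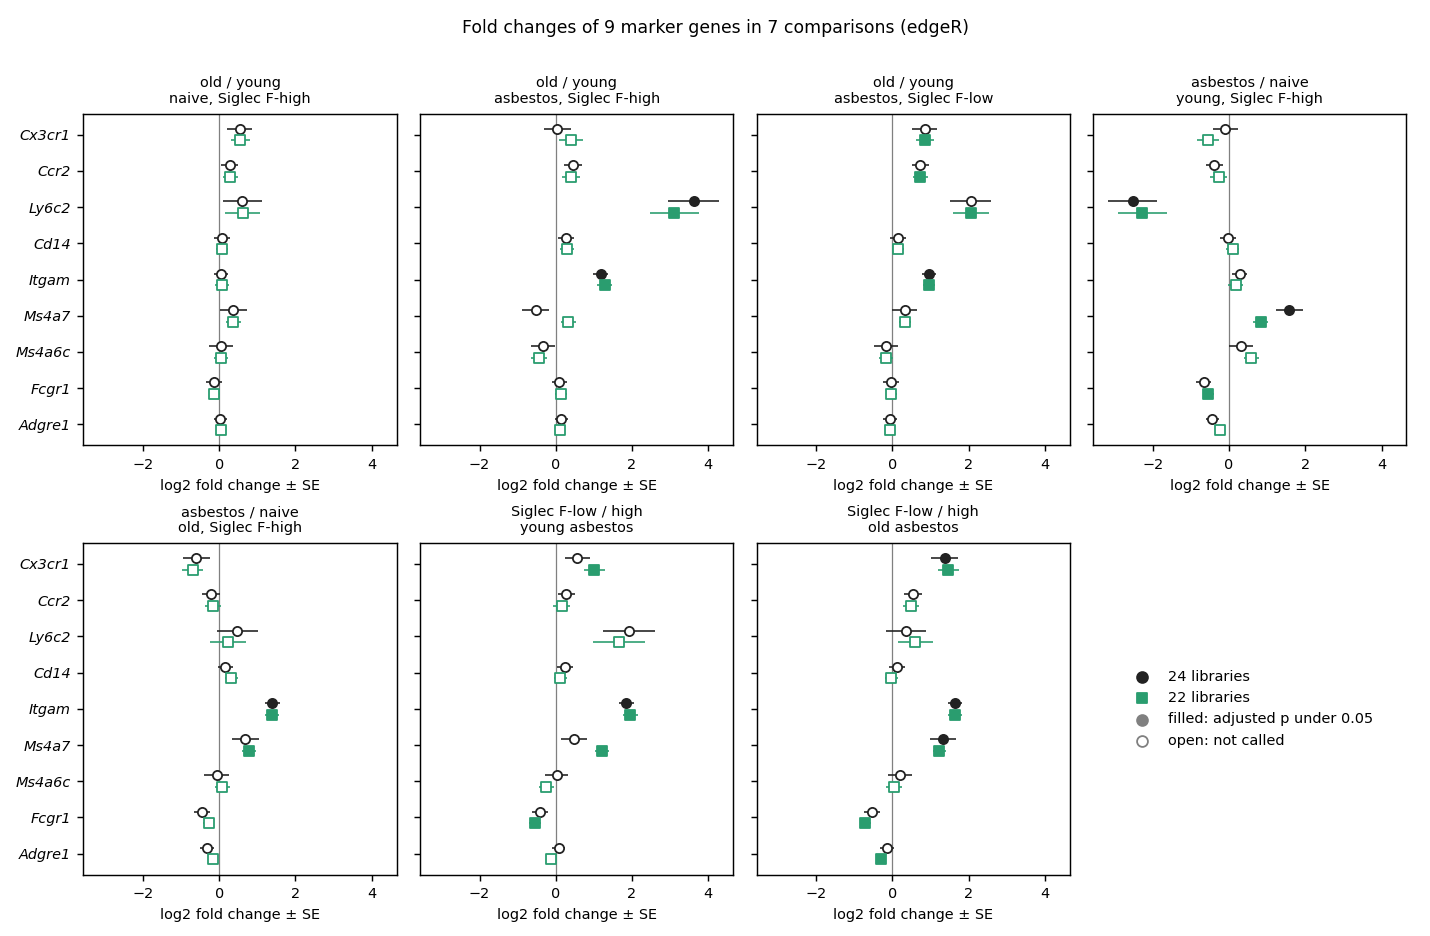
Log2 fold change (x axis) of each marker gene in the 7 comparisons of 2 groups, with bars of 1 standard error. Black circles are the fit of 24 libraries, green squares the fit of 22, and filled symbols are called at an adjusted p under 0.05; Itgam is filled in 5 panels in both fits and Cd14 and Ms4a6c in none.

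Itgam (ENSMUSG00000030786, GRCm38 chromosome 7, 128062640 to 128118491, plus strand) encodes the αM chain, CD11b, of the Mac-1 integrin, which binds complement fragments and adhesion ligands. It stood at 7.21, 10.6, 9.52 and 10.2 CPM in the young naive libraries and at 10.02, 9.09, 9.28 and 10.7 CPM in the old naive ones. In asbestos Siglec F-high cells it was 13.3, 9.49, 13.9 and 8.92 CPM in young and 24.4, 21.4, 26.1 and 31.2 CPM in old. In asbestos Siglec F-low cells it was 41.2, 31.3, 46.6 and 45.2 CPM in young and 75.3, 63.6, 71.8 and 110 CPM in old. The 3 lowest groups, naive young, naive old and asbestos Siglec F-high young, overlapped, and above them the old Siglec F-high, young Siglec F-low and old Siglec F-low asbestos groups followed with no overlap between neighbours. Siglec F-low exceeded Siglec F-high cells 3.61-fold in young (log2 fold change 1.85 ± 0.19, edgeR adjusted p 1.66e-06) and 3.11-fold in old asbestos lungs (1.64 ± 0.19, edgeR adjusted p 1.29e-05).

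After asbestos, old Siglec F-high cells had 2.63 times the Itgam of old naive ones (log2 fold change 1.40 ± 0.19, edgeR adjusted p 0.00031). In young Siglec F-high cells the same difference was 0.28 ± 0.19 with 24 libraries (edgeR adjusted p 0.416) and 0.17 ± 0.20 with 22 (edgeR adjusted p 0.732). Old exceeded young cells 2.26-fold in the asbestos Siglec F-high sort (log2 fold change 1.18 ± 0.19, edgeR adjusted p 0.000629) and 1.95-fold in the Siglec F-low sort (0.96 ± 0.18, edgeR adjusted p 0.00497), while the naive groups differed by 0.06 ± 0.19. Siglecf itself was lower in old than in young cells of the Siglec F-low sort, at -0.61 ± 0.14 (edgeR adjusted p 0.0257), and its part in the Itgam difference was not tested. The difference of the asbestos effect between the ages, old minus young, was 1.12 ± 0.27 with 24 libraries (unadjusted p 0.00037, edgeR adjusted p 0.587) and 1.22 ± 0.27 with 22 (unadjusted p 0.000191, edgeR adjusted p 0.234). Neither passed the adjustment over all genes. In asbestos Siglec F-high cells all 4 old libraries lay above all 4 young ones, which describes age within that sort and not the difference of the asbestos effect. The 5 calls of Itgam held when any 1 of the 24 libraries was left out. GENCODE M21 also annotates an overlapping model, Gm49368, which holds 66.3% of all 50-base stretches of the Itgam transcripts, and it was not analysed here.

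Ms4a7 (ENSMUSG00000024672, chromosome 19, 11321039 to 11336146, minus strand) encodes a multi-pass membrane protein of the MS4A family. Its values were 4.22, 4.46, 3.30 and 2.93 CPM in young naive and 5.48, 4.995, 4.59 and 4.14 CPM in old naive cells. Asbestos Siglec F-high cells had 7.34, 6.91, 25.5 and 5.61 CPM in young and 8.86, 6.91, 4.08 and 9.03 CPM in old, where both odd values, 25.5 and 4.08, came from the outlying libraries. Asbestos Siglec F-low cells had 15.6, 19.9, 11.3 and 15.3 CPM in young and 20.97, 15.9, 17.8 and 23.1 CPM in old. Without the outlying libraries the 3 kinds of cell did not overlap within an age: naive Siglec F-high was lowest and asbestos Siglec F-low highest.

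In old asbestos lungs Ms4a7 was higher in Siglec F-low than in Siglec F-high cells by 1.33 ± 0.35 with 24 libraries (edgeR adjusted p 0.0304) and by 1.23 ± 0.18 with 22 (edgeR adjusted p 6.23e-05). With 24 libraries this call was lost when any 1 of the 4 old Siglec F-high libraries or of Siglec F-low replicates 1, 3 and 4 was left out (edgeR adjusted p 0.0528 to 0.102). In young asbestos lungs the difference was 0.47 ± 0.33 with 24 libraries (edgeR adjusted p 0.432), and it was 1.22 ± 0.18 with 22 (edgeR adjusted p 7.44e-05) and 1.22 when only the outlying young library was dropped (edgeR adjusted p 0.000193). Against naive cells, asbestos Siglec F-high cells were higher by 1.58 ± 0.35 in young mice (edgeR adjusted p 0.0193). That value was 0.83 ± 0.19 with 22 libraries (edgeR adjusted p 0.0119), and the call with 24 was lost without young naive replicate 3 or 4 (edgeR adjusted p 0.0853 and 0.088). In old mice the difference was 0.69 ± 0.36 with 24 libraries (edgeR adjusted p 0.642), 0.78 ± 0.19 with 22 (edgeR adjusted p 0.0188) and 0.72 when only the outlying young library was dropped (edgeR adjusted p 0.0426). Between the ages in asbestos Siglec F-high cells, old minus young was -0.53 ± 0.35 with 24 libraries and 0.32 ± 0.20 with 22, neither called, so its direction rested on the outlying young library.

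**Figure D3:**
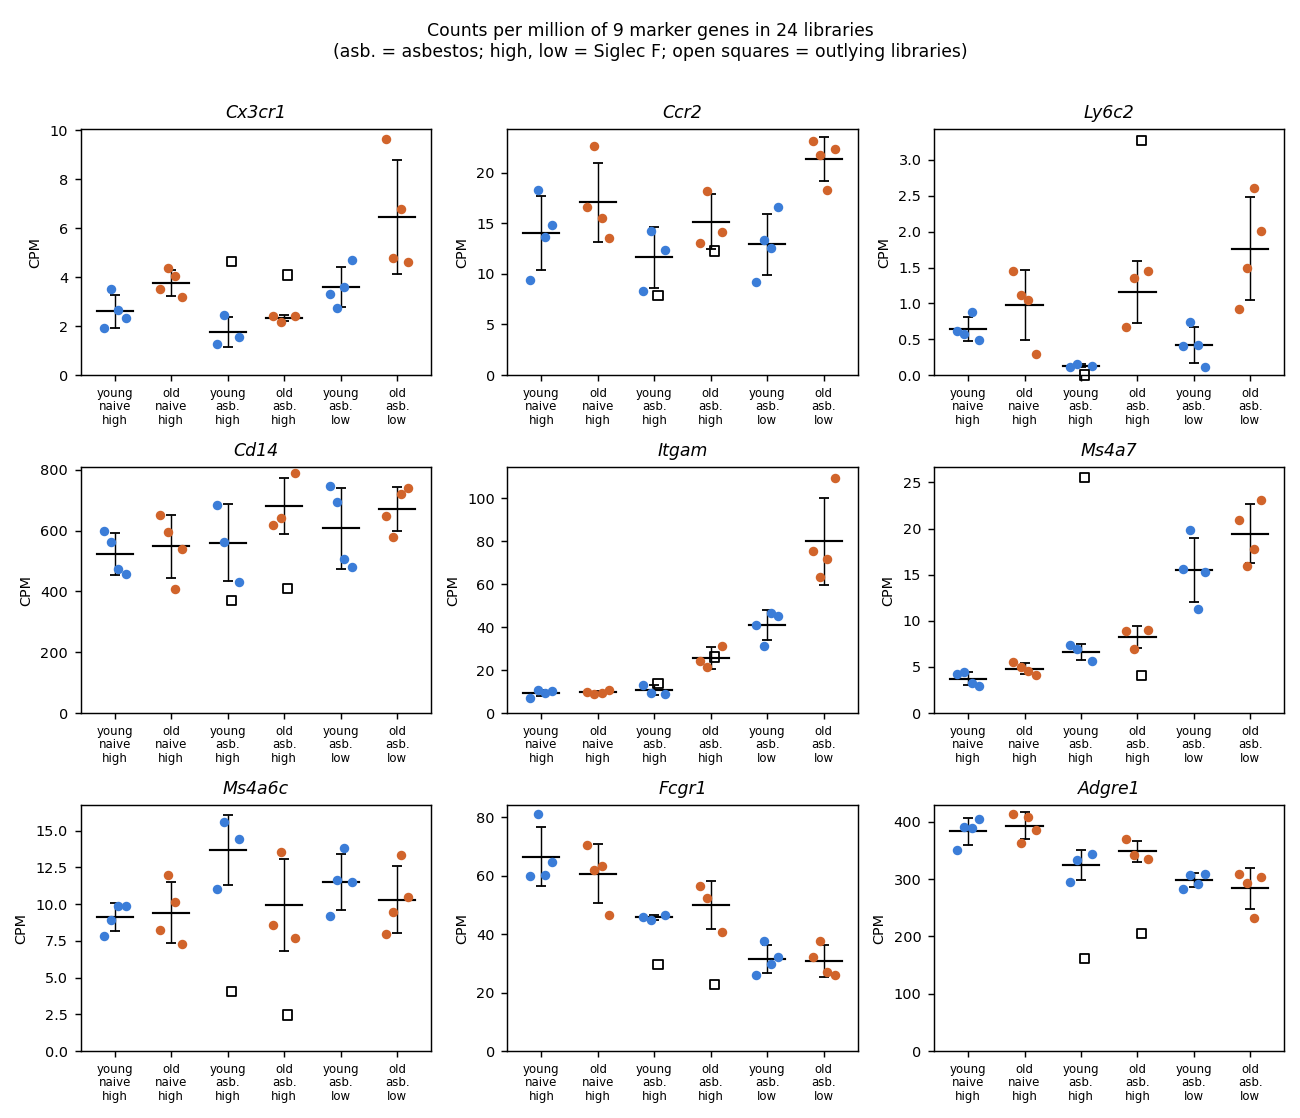
CPM of each marker gene (y axis, from 0, with its own scale per panel) in the 6 groups of 4 libraries. Filled points are libraries, blue for young and orange for old, open squares are the 2 outlying libraries, and the line and bar give the mean and SD of the other libraries of the group; Itgam and Ms4a7 step up towards the Siglec F-low groups while Fcgr1 and Adgre1 lie lower there than in naive cells.

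Sequence upstream of the start was looked at for members that moved together or apart. RefSeq promoter windows on GRCm38.p6 were found for 7 of the 9 members, and the 250 bases before each annotated start were searched on both strands for GAGGAA, the core of sites of the myeloid factor PU.1. They were also searched for the longer GAGGAAGT, which contains that core, for TGANTCA (AP-1), TTGCNNAA (C/EBP), TTCNNNGAA (the GAS element of STAT factors) and TGCTGA (MAF). The 3 windows below are those of Itgam and Ms4a7, which were higher in Siglec F-low cells, and of Fcgr1, which was lower there with 22 libraries. Each is written 5′ to 3′ on the gene's own strand with matches to GAGGAA or its reverse complement in capitals: Itgam at chr7:128062390-128062639 (plus strand), Ms4a7 at chr19:11336147-11336396 (minus strand) and Fcgr1 at chr3:96293970-96294219 (minus strand).
Itgam: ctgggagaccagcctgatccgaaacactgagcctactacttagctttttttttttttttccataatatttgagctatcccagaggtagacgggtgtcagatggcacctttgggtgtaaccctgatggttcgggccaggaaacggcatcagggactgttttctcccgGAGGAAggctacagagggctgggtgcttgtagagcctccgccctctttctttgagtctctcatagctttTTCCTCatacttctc
Ms4a7: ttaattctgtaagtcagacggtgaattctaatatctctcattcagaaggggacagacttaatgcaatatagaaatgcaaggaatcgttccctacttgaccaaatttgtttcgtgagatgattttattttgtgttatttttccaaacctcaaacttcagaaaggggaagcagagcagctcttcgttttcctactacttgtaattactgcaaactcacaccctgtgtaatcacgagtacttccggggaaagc
Fcgr1: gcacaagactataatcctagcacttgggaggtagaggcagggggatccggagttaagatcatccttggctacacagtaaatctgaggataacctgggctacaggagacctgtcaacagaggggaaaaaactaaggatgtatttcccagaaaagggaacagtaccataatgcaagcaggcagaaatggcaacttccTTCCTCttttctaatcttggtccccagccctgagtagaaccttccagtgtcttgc
The Itgam window held 2 copies of the core, the Fcgr1 window 1 and this Ms4a7 window 0. Of all 32536 distinct windows of that length, 23.4% held GAGGAA on either strand. Of the members with a window, 3 had the core (Itgam, Fcgr1 and Ly6c2) and 1, Ly6c2, had the longer GAGGAAGT, which 2.45% of all windows held. Fcgr1 also had ttcccagaa, a match to the GAS letters found in 7.04% of windows, and a second Ms4a7 start had tgattca, a match to the AP-1 letters found in 6.73%. No member's window held the C/EBP or MAF letters, found in 9.57 and 16.1% of windows. A match describes these letters only, and no binding data were part of the series.

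Cx3cr1 (ENSMUSG00000052336, chromosome 9, 119901616 to 120069879, minus strand) encodes the receptor of fractalkine, a chemokine that supports the survival and patrolling of nonclassical monocytes. Young naive libraries had 1.90, 3.50, 2.67 and 2.33 CPM and old naive ones 3.50, 4.38, 4.03 and 3.20 CPM. In asbestos Siglec F-high cells the values were 1.29, 2.44, 4.64 and 1.56 CPM in young and 2.41, 2.17, 4.08 and 2.40 CPM in old, and the highest of each group was the outlying library. In Siglec F-low cells they were 3.31, 2.74, 3.60 and 4.68 CPM in young and 9.62, 4.76, 6.76 and 4.62 CPM in old. The old Siglec F-low group was the highest and did not overlap the next group below it, while the other 5 groups overlapped their neighbours. Siglec F-low exceeded Siglec F-high cells of old asbestos lungs by 1.37 ± 0.35 on the log2 scale with 24 libraries (edgeR adjusted p 0.025) and by 1.46 ± 0.28 with 22 (edgeR adjusted p 0.000905).

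The call with 24 libraries was lost when old asbestos Siglec F-high replicate 1, 2 or 4 or Siglec F-low replicate 1 or 3 was left out (edgeR adjusted p 0.0596 to 0.113). In young asbestos lungs the Cx3cr1 difference between sorts was 0.56 ± 0.33 with 24 libraries (edgeR adjusted p 0.338), 1.01 ± 0.28 with 22 (edgeR adjusted p 0.0207) and 1.01 without the outlying young library alone (edgeR adjusted p 0.0315). Between old and young Siglec F-low cells it was 0.85 ± 0.32 with 24 libraries (edgeR adjusted p 0.348), 0.85 ± 0.24 with 22 (edgeR adjusted p 0.0314) and 0.85 without the outlying young library alone (edgeR adjusted p 0.0494), although the ranges of these groups overlapped. The difference of the sort effect between the ages was 0.80 ± 0.48 with 24 libraries (edgeR adjusted p 0.761) and 0.45 ± 0.39 with 22 (edgeR adjusted p 0.904), so the larger value in old was not shown to differ from that in young.

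Ccr2 (ENSMUSG00000049103, chromosome 9, 124101950 to 124113557, plus strand) encodes the receptor for Ccl2 through which classical monocytes leave the marrow and enter tissue. It was 9.42, 18.3, 13.7 and 14.9 CPM in young naive and 16.6, 22.6, 15.5 and 13.5 CPM in old naive cells. In asbestos Siglec F-high cells it was 8.31, 14.2, 7.83 and 12.4 CPM in young and 13.1, 18.2, 12.3 and 14.1 CPM in old. In Siglec F-low cells it was 9.17, 13.4, 12.5 and 16.6 CPM in young and 23.2, 21.7, 18.3 and 22.3 CPM in old. The old Siglec F-low libraries were higher than all young Siglec F-low and all old Siglec F-high ones, and all groups overlapped their neighbours in the order of means.

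Between old and young Siglec F-low cells the Ccr2 difference was 0.73 ± 0.22 with 24 libraries (edgeR adjusted p 0.146) and 0.73 ± 0.20 with 22, where it was called (edgeR adjusted p 0.0268). It was also called with 24 libraries when the outlying young library alone was left out (0.72, edgeR adjusted p 0.0379). Between Siglec F-low and Siglec F-high cells of old asbestos lungs it was 0.54 ± 0.23 with 24 libraries (edgeR adjusted p 0.236) and 0.49 ± 0.22 with 22 (edgeR adjusted p 0.163). In the 22 libraries same-numbered libraries of these 2 sorts deviated together, with every correlation over 0.1. No other pair of groups passed that limit, but the young asbestos sorts came near it, at 0.0854 to 0.319. A fit chosen after seeing the data, with a replicate-number block shared by all groups, gave 0.55 ± 0.17 for Ccr2 between the old sorts (edgeR adjusted p 0.0373). Because the block is shared, this fit is not a paired test of the old sorts alone. The young sorts differed by 0.27 ± 0.22 with 24 libraries, with a 95% interval of -0.17 to 0.71, and by 0.15 ± 0.22 with 22.

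Ly6c2 (ENSMUSG00000022584, chromosome 15, 75108158 to 75111970, minus strand) encodes one of the proteins read by antibodies to Ly-6C, the classical monocyte antigen. It was at the edge of detection, with 0 to 39 counts a library, so its values are given as counts. Young naive libraries had 12, 9, 18 and 9 counts and old naive ones 25, 20, 19 and 5. Asbestos Siglec F-high libraries had 2, 3, 0 and 2 counts in young and 11, 23, 4 and 20 in old, where the 0 and the 4 belong to the outlying libraries. Asbestos Siglec F-low libraries had 6, 13, 7 and 2 counts in young and 16, 23, 39 and 33 in old.

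The young asbestos Siglec F-high group was the lowest, at 7 counts in all against 48 in young naive and 58 in old asbestos Siglec F-high cells. As a ratio of summed counts per effective library size, old was 11.1 times young in asbestos Siglec F-high cells, with an exact 95% interval of 5.06 to 28.8 that covers counting error only. With 22 libraries the ratio was 8.92 (4.05 to 23.2). The edgeR test of old against young in this sort was called in both fits (adjusted p 0.00243 and 0.00409) and with any 1 library left out. In Siglec F-low cells the ratio of old to young was 4.14 (2.72 to 6.51), and the edgeR test was not called with 24 libraries (adjusted p 0.066) and was with 22 (adjusted p 0.00821). It was also called when old naive replicate 4, the outlying young library or the outlying old library was left out (edgeR adjusted p 0.0468, 0.0154 and 0.0462).

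In young Siglec F-high cells Ly6c2 was lower after asbestos, at 0.166 times the naive level (exact 95% interval of the counts 0.0634 to 0.369, edgeR adjusted p 0.0459). The edgeR adjusted p was 0.0435 with 22 libraries. That call was lost in 16 of the 24 fits that left out 1 library, with an edgeR adjusted p of 0.0525 to 0.154. It held only without old naive replicate 4, young asbestos Siglec F-high replicate 2 or 4, young Siglec F-low replicate 2 or 4, old asbestos Siglec F-high replicate 1 or 3, or old Siglec F-low replicate 1. Genes of B cells were lower in the same comparison: 3 of the 8 listed were called, among them Cd79a and Cd79b, with a median of -1.28 over the list. With 22 libraries 5 of the 8 were called lower, with a median of -1.16. The summed level of that list was 246 to 271 CPM in young naive and 84.1 to 255 CPM in young asbestos Siglec F-high cells, mostly from Cd22 and Cd37. The 84.1 CPM was that of the outlying library, and the other 3 libraries had 242 to 255 CPM. In this list no gene was at 0 in more than 1 of the 24 libraries. The part of B cell RNA in the Ly6c2 difference was not tested. The difference of the asbestos effect between the ages was 3.004 ± 0.848 for Ly6c2 (unadjusted p 0.00183, edgeR adjusted p 0.587).

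Reads of Ly6c2 could be shared with its neighbour Ly6c1, since 13.9% of the 50-base stretches of its GENCODE M21 transcripts are also in those of Ly6c1. The coding sequences of 1 transcript of each gene, matched on length, have 396 bases each and differ at 9 of them. Bases 1 to 120, shown because they hold 6 of the 9, are written with the differing bases in capitals.
Ly6c2: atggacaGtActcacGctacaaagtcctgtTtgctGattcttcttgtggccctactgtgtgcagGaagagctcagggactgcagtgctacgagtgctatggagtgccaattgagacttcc
Ly6c1: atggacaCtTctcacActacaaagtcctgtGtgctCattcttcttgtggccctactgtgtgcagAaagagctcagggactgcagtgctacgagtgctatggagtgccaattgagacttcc
Ly6c1 had 0 to 11 counts a library and did not follow Ly6c2. In the old asbestos Siglec F-low libraries, where Ly6c2 had 16 to 39 counts, Ly6c1 had 4, 5, 4 and 1.

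Cd14 (ENSMUSG00000051439, chromosome 18, 36725067 to 36726798, minus strand) encodes the surface protein that hands lipopolysaccharide to the Tlr4 complex. It was 598, 561, 472 and 456 CPM in young naive and 651, 597, 408 and 539 CPM in old naive cells. Asbestos Siglec F-high cells had 685, 564, 370 and 432 CPM in young and 619, 640, 410 and 788 CPM in old. Asbestos Siglec F-low cells had 746, 695, 508 and 479 CPM in young and 647, 578, 719 and 739 CPM in old. All 6 groups overlapped their neighbours. With 24 libraries the log2 differences of the 7 comparisons lay between -0.03 and 0.26, and that between the sorts was 0.24 (95% interval -0.16 to 0.65) in young and 0.12 (-0.28 to 0.53) in old. With 22 libraries these were 0.11 (-0.22 to 0.45) and -0.03 (-0.36 to 0.30).

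Ms4a6c (ENSMUSG00000079419, chromosome 19, 11469366 to 11482192, plus strand) is a second MS4A gene, known from monocytes and monocyte-derived cells. It did not follow Ms4a7. It was 7.82, 8.91, 9.86 and 9.86 CPM in young naive and 8.22, 12.0, 10.2 and 7.28 CPM in old naive cells. Asbestos Siglec F-high cells had 11.04, 15.6, 4.06 and 14.4 CPM in young and 8.56, 13.5, 2.45 and 7.72 CPM in old, and both lowest values were those of the outlying libraries. Asbestos Siglec F-low cells had 9.17, 11.6, 13.8 and 11.5 CPM in young and 7.94, 9.46, 13.3 and 10.5 CPM in old. Its difference between sorts was 0.02 ± 0.31 in young and 0.20 ± 0.32 in old with 24 libraries, and -0.25 ± 0.20 and 0.04 ± 0.21 with 22, none of them called. The nearest to a call was asbestos against naive in young Siglec F-high cells with 22 libraries, at 0.58 ± 0.20 (edgeR adjusted p 0.0994), where the ranges did not overlap. Of the 50-base stretches of its transcripts, 10.5% are shared with other genes, most of them with Ms4a6b.

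Fcgr1 (ENSMUSG00000015947, chromosome 3, 96282909 to 96293969, minus strand) encodes CD64, the high-affinity IgG receptor of macrophages. It ran against Itgam. Young naive cells had 59.7, 81.2, 60.2 and 64.6 CPM and old naive ones 70.5, 62.0, 63.3 and 46.5 CPM. Asbestos Siglec F-high cells had 45.7, 44.8, 29.7 and 46.6 CPM in young and 56.5, 52.3, 22.9 and 40.7 CPM in old, where the outlying libraries gave the lowest value of each group. Asbestos Siglec F-low cells had 25.8, 37.5, 29.9 and 32.3 CPM in young and 32.04, 37.8, 27.1 and 25.9 CPM in old. The 2 Siglec F-low groups were the lowest and the 2 naive groups the highest.

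With 24 libraries no comparison of Fcgr1 was called, the sorts differing by -0.41 ± 0.20 in young (edgeR adjusted p 0.255) and -0.54 ± 0.21 in old asbestos lungs (edgeR adjusted p 0.182). With 22 libraries these values were -0.54 ± 0.15 and -0.71 ± 0.15, and both were called (edgeR adjusted p 0.0196 and 0.00273). That in old was also called without the outlying young or the outlying old library alone (-0.58 and -0.71, edgeR adjusted p 0.0334 and 0.0332). Asbestos against naive in young Siglec F-high cells was -0.67 ± 0.20 with 24 libraries (edgeR adjusted p 0.0992), -0.54 ± 0.15 with 22 (edgeR adjusted p 0.0363) and -0.67 without the outlying old library (edgeR adjusted p 0.0352). In old Siglec F-high cells that difference was -0.44 ± 0.21 and -0.28 ± 0.15, not called. The ages differed by at most 0.14 in size in any of the 3 comparisons, in both fits.

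Adgre1 (ENSMUSG00000004730, chromosome 17, 57358691 to 57483527, plus strand) encodes F4/80, the adhesion G protein-coupled receptor used to mark mouse macrophages. It was 351, 391, 389 and 405 CPM in young naive and 415, 363, 409 and 386 CPM in old naive cells. Asbestos Siglec F-high cells had 295, 334, 161 and 345 CPM in young and 370, 341, 206 and 335 CPM in old, with the outlying libraries again lowest. Asbestos Siglec F-low cells had 283, 308, 292 and 309 CPM in young and 308, 293, 232 and 303 CPM in old. Every naive library exceeded every Siglec F-low one. Siglec F-low against Siglec F-high cells of old asbestos lungs gave -0.15 ± 0.18 with 24 libraries (edgeR adjusted p 0.828) and -0.30 ± 0.09 with 22, the only call of Adgre1 (edgeR adjusted p 0.0212). Naive against Siglec F-low cells, which differ in exposure and in sort at once, were not tested.

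The asbestos effect in Siglec F-high cells and the effect of the sort in asbestos lungs were each compared between the ages. Neither interaction called any of the 9 members with 24 or 22 libraries. Over all genes edgeR called 0 with 24 libraries in both interactions (0% of genes), where 1050 and 650 genes had an unadjusted p under 0.05, and DESeq2 called 0 and 6 genes and limma voom 3 and 15. With 22 libraries edgeR called 2 genes in each, or 0.0147% in each, and 703 and 870 genes had an unadjusted p under 0.05. At an unadjusted p under 0.05 there were 2 members in the first, Itgam and Ly6c2, and 0 in the second, in both fits. So the higher Itgam and Ly6c2 of old cells after asbestos are calls within the asbestos groups, and a difference between the ages in the response to asbestos did not pass the test for either gene.

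The 9 genes did not move as 1 group. Over the 22 libraries the Pearson correlation of log2 CPM had a median of 0.03 over the 36 pairs of members, 7 pairs were above 0.5 and 16 below 0. The libraries of a group share age, exposure and sort, so these values describe the pattern over the groups. Itgam and Ms4a7 were the most alike, at 0.93, followed by Fcgr1 with Adgre1 at 0.87 and Cx3cr1 with Ccr2 at 0.73. The most opposed were Ms4a7 and Fcgr1, at -0.86, Itgam and Fcgr1, at -0.85, and Ms4a7 and Adgre1, at -0.80. Ms4a6c had no correlation above 0.14 with another member. The heat map of these correlations has 2 blocks, 1 of Itgam and Ms4a7 and 1 of Fcgr1 and Adgre1, joined by negative values.

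**Figure D4:**
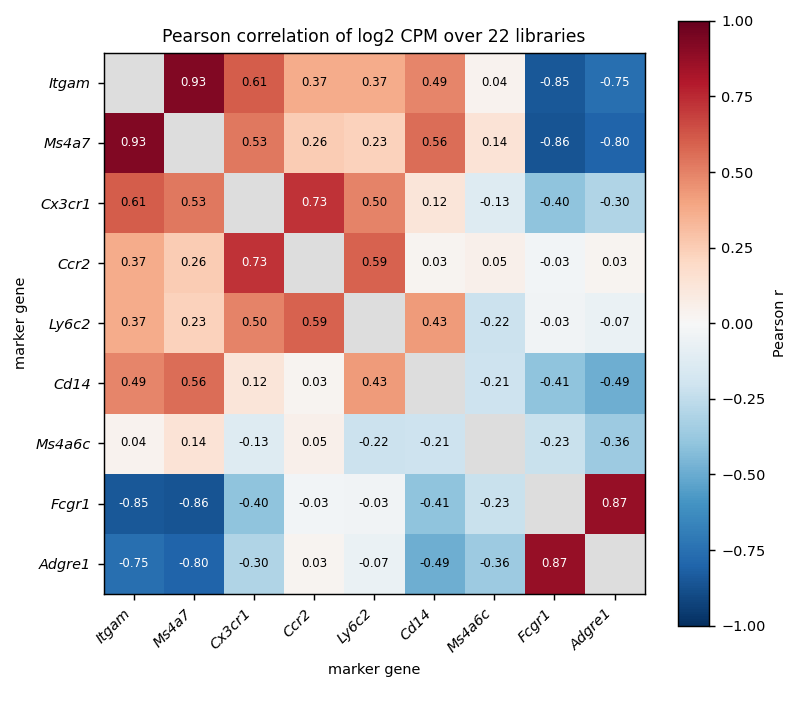
Pearson correlation of log2 CPM between the marker genes over the 22 libraries that did not stand apart, from blue (-1) to red (1), with the value in each cell. Itgam with Ms4a7 (0.93) and Fcgr1 with Adgre1 (0.87) are the highest, and Ms4a7 with Fcgr1 (-0.86) the lowest.

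The tested genes most like each member over the same 22 libraries were named by a fixed rule. For Itgam the highest was the B cell linker adaptor Blnk, at 0.97. For Ms4a7 they were the lysosomal proteases Lgmn and Ctsl, both at 0.98. For Fcgr1 they were the actin regulator Coro1a (0.95) and Rasgrp4 (0.94), and for Adgre1 the guanylate-binding protein gene Gbp8 and the protease gene Htra3 (both 0.92). For Ly6c2 they were Plac8, another gene of classical monocytes (0.90), and Dpy19l3 (0.82). For Cd14 they were Hilpda (0.93), a gene of lipid droplets, and Ifrd1 (0.92). Values were lower for Ccr2, with the TGF-beta signal transducer Smad3 (0.83) and the leukotriene B4 receptor Ltb4r1 (0.80). Cx3cr1 was most like Ltb4r1 (0.81) and Gas7 (0.79), and Ms4a6c most like Ccr8 and Ctla4 (both 0.75). Likeness over groups that share 3 factors says nothing of a shared function or control.

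Further lists give the surroundings of these markers, beside a median over all genes of 0.00 in each comparison of sorts. Of 15 listed genes of monocyte-derived and interstitial macrophages, 4 were higher in Siglec F-low than in Siglec F-high cells of young asbestos lungs and 5 in old ones, and 0 were lower, with medians of 0.91 and 1.05. The complement genes C1qa, C1qb and C1qc were called at both ages. C1qb was higher, from 5.85 ± 1.28 to 45.9 ± 4.97 CPM in young and from 3.74 ± 1.44 to 72.5 ± 6.78 CPM in old (mean ± SD, n = 4 libraries, edgeR adjusted p 6.22e-08 and 9.53e-10). With 22 libraries 6 and 8 of the 15 were higher and 0 lower.

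Of 22 relatives of the members by family, 20 were tested. Between the sorts 2 were higher and 1 lower in young asbestos lungs, and 3 higher and 2 lower in old ones, with medians of 0.28 and 0.38. With 22 libraries 5 were higher and 2 lower in young, and 5 higher and 4 lower in old. Adgre5, the CD97 gene and a relative of Adgre1, was higher in Siglec F-low cells by 1.61 ± 0.29 in young and 1.43 ± 0.29 in old (edgeR adjusted p 0.00128 and 0.00484). Itgad, the αD integrin gene downstream of Itgam, had log2 fold changes of -1.67 ± 0.38 and -2.35 ± 0.39, lower at both ages (edgeR adjusted p 0.0105 and 0.000726). Adgre5 was thus higher where Adgre1 was not, and Itgad was lower where Itgam was higher. Other relatives shared the direction of a member. With 22 libraries Ms4a6d, named after its value was seen, was higher in Siglec F-low cells, as Ms4a7 was. Its differences were 0.41 ± 0.09 in young and 0.30 ± 0.09 in old (edgeR adjusted p 0.00515 and 0.0401).

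Of 8 partners and ligands, which hold Itgb2, the β chain of Mac-1, and the ligands of Ccr2 and Cx3cr1, 0 were called between the young sorts and 1 between the old ones with 24 libraries, with medians of 0.20 and 0.49 (0.38 and 0.39 with 22 libraries). The 1 was the fractalkine gene Cx3cl1, lower in Siglec F-low cells at -0.72 ± 0.17 (edgeR adjusted p 0.0165), named after its value was seen, as are the next genes. With 22 libraries Itgb2 was higher in Siglec F-low cells of both ages, by 0.43 ± 0.08 and 0.27 ± 0.08 (edgeR adjusted p 0.000808 and 0.0299). Of 15 other genes of classical monocytes, 0 were called between the sorts at either age with 24 libraries and 1 at each age with 22, with medians of 0.23 and 0.38 over 24 libraries. Of 10 genes of nonclassical monocytes, 0 were higher between the sorts in either fit, and 2 were lower in old asbestos lungs, Cd300e at -1.62 ± 0.40 and Treml4 at -1.15 ± 0.24 (edgeR adjusted p 0.0203 and 0.00704), with 24 libraries. With 22 libraries 2 were lower in young and 4 in old. The medians were -0.24 in young and -0.18 in old with 24 libraries, and -0.12 and -0.26 with 22.

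Markers of other cells that a lung sort could hold were read beside these results. The neutrophil gene Ly6g was at 0 in 22 of the 24 libraries and the eosinophil gene Epx in 18, and the fibroblast gene Dcn was at 0 in 19. Other genes of these lists were present: the fibroblast gene Col1a1 was at 0 in 1 library, and Ear6, of the eosinophil list, in none, with up to 59.8 CPM. Ear6 was higher after asbestos in Siglec F-high cells of both ages, in both fits. The summed level of the 5 eosinophil genes was 2.601 to 6.05 CPM in young naive and 2.36 to 8.05 CPM in old naive cells. In young asbestos lungs it was 17.6 to 27.7 CPM in Siglec F-high and 42.2 to 62.3 CPM in Siglec F-low cells. In old asbestos lungs it was 5.72 to 35.3 CPM in Siglec F-high cells, 13.6 to 35.3 CPM without the outlying library, and 17.02 to 53.4 CPM in Siglec F-low cells. Among the 5 genes only Ear6 had a median above 0.607 CPM over the 24 libraries, so these sums mostly follow that gene. Without the outlying libraries, the sums of both asbestos sorts lay above those of naive cells of the same age. The ranges of the sorts lay apart in young and overlapped in old asbestos lungs. Of the 3 tested eosinophil genes, 0 were called between the sorts at either age, in both fits. The part of these sums in the differences of the 9 genes was not tested. Of the 9 neutrophil genes, Mmp8, Csf3r and S100a8 had the highest medians over the 24 libraries, at 35.6, 15.9 and 11.5 CPM. Ngp and Camp were at 0 in 15 and 16 libraries. The summed level of the 9 genes was 93.0 to 97.7 CPM in young and 83.5 to 108 CPM in old Siglec F-low cells. In Siglec F-high cells of asbestos lungs, without the outlying libraries, it was 70.0 to 80.6 CPM in young and 74.9 to 88.8 CPM in old. Neutrophils carry Itgam as well, and between the sorts 0 of 6 tested neutrophil genes were higher and 1 was lower in young, and 0 were called in old, with 24 libraries. With 22 libraries 3 were higher and 1 lower in young (Mmp8, S100a8, S100a9 and, lower, Csf3r) and 1 was higher in old (Retnlg). Their part in the Itgam difference was not tested. Lists of T and NK, dendritic, epithelial and endothelial cells were read as well. Between the sorts with 24 libraries the only call in them was Epcam, lower in Siglec F-low cells at both ages. With 22 libraries Epcam was again lower at both ages, and in old lungs Cd2 and Scgb1a1 were lower and Cdh5 higher. The part of such cells in the differences of the 9 genes was not tested.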

How the data were processed

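Poly(A)-selected RNA-seq libraries were made from 30 ng of total RNA of sorted cells, per the labels' protocols. The authors deposited 1 table of whole-number read counts per Ensembl mouse gene. Per the submitters' processing notes, bcl2fastq 2.19.1, FastQC, Trimmomatic 0.36, STAR 2.6.0 and HTSeq 0.11.2 were used with the build mm10. Their settings and the strand option are not given in the sources used here, so antisense and overlapping genes cannot be told apart. Symbols were found for 42462 of 43430 IDs, and positions and exon lengths are those of GENCODE M21 on GRCm38, the same build.

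Low genes were dropped by group with filterByExpr (minimum count 10, minimum total 15). After TMM scaling, 1 quasi-likelihood model with a term per group was fitted (edgeR 4.0.16, R 4.3.3). P-values were adjusted over all genes of a comparison (Benjamini-Hochberg) and called under 0.05. SE is the absolute log2 fold change divided by the square root of F, and CPM are counts per 1000000 of TMM-scaled library size. Correlations used log2 CPM with a prior count of 2. The pipeline was tested on simulated data. Alternatives were the 22 libraries with at most 10% rRNA-related counts and at least 14000 genes, RLE size factors, no filter, DESeq2 1.42.0, limma 3.58.1 voom with quality weights, a replicate block and leaving out each library. The members, lists and tests were chosen with earlier results of these data known.

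Every member is named. For each, the 2 genes with a symbol of highest correlation are named, and of each list up to 4 genes of smallest p between the young sorts that were called at both ages. Some genes that this rule names are not reported here. No source says that a replicate number marks an animal or a batch. Same-numbered libraries deviated together (every correlation over 0.1) only in the old asbestos sorts with 22 libraries, at 0.150 to 0.205 over 3 numbers. The young asbestos sorts with 22 libraries missed that limit narrowly, at 0.0854 to 0.319.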

Additional observations from a re-analysis of the deposited data

Results flagged for a closer look

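In 3 of the 54 groups of 4 libraries, 1 library lay apart from the other 3 by a gap above the critical value for its range. Chance alone flags about 1 in 20 groups. Cx3cr1 was 4.08 CPM in old asbestos Siglec F-high replicate 3, above 2.17 to 2.41 CPM in the others. Ms4a7 was 25.5 CPM in young asbestos Siglec F-high replicate 3, above 5.61 to 7.34 CPM. Fcgr1 was 29.7 CPM in that same library, below 44.8 to 46.6 CPM. All 3 are in the 2 libraries that stood apart in rRNA-related counts or genes detected.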

How the results depend on the processing

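Counts of members called moved both without the 2 outlying libraries and with limma voom with quality weights. Leaving out 1 library at a time, between old and young Siglec F-low cells 1 to 4 members were called (1 with 24 libraries), and between asbestos and naive Siglec F-high cells 0 to 3 in young (2) and 1 to 2 in old (1). Between the sorts the ranges were 1 to 3 in young (1) and 1 to 4 in old asbestos lungs (3). Over all genes these fits called 77 to 620, 101 to 647, 39 to 411, 427 to 1158 and 269 to 1543 genes, in the same order. For those 5 comparisons in that order, limma voom with quality weights called 5, 4, 2, 4 and 5 members and the 22 libraries 4, 3, 2, 4 and 5. Between old and young Siglec F-low cells DESeq2 called 3. With no filter on low counts, 1 member was called between asbestos and naive young cells, beside 195 genes over all. A replicate block gave 2 members between old and young Siglec F-low cells and 1 between asbestos and naive young cells, beside 153 and 210 genes over all. The 22 libraries with that block, chosen after seeing the data, gave 4, 3, 2, 4 and 6 members in the order of those 5 comparisons. Over all genes this setting called 1240, 889, 725, 2440 and 1954. Between old and young asbestos Siglec F-high cells 2 to 3 members were called under every alternative. Between the naive ages and in both interactions 0 were called in all 31 settings.

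Of 81 member values, 22 are reported singly. Of these, Ms4a7 between old and young asbestos Siglec F-high cells changed sign, from -0.53 to 0.32 with the 22 libraries, 0.31 by limma voom and 0.33 with the 22 libraries and the replicate block. Leaving out 1 library it ran from -0.74 to 0.26, the positive value being that without the outlying young library. Of the other 59 values, 21 changed sign under some setting and none of those was called. The replicate block lost the calls of Ms4a7 between the old sorts (1.31) and of Ly6c2 between asbestos and naive young cells (-2.48), the latter also lost with no filter on low counts (-2.54) and with the 22 libraries and the replicate block (-2.16), and the cause was not tested.

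Over all genes, the 22 libraries called 1094 genes between the naive ages against 273 with 24, 997 against 641 between old and young asbestos Siglec F-high cells and 983 against 174 between the Siglec F-low ages. They called 690 against 256 and 562 against 105 between asbestos and naive young and old cells, and 1638 against 672 and 1578 against 579 between the young and old sorts. DESeq2 called 474, 1432, 358, 594, 243, 1133 and 924 genes in that order, and limma voom 1870, 1896, 1285, 1895, 687, 2309 and 2089. Depth limits Ly6c2 most, at 0 to 39 counts a library.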
